A study of Mus musculus with 4 samples.

Results

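The collagen genes are the 44 rows of the deposited count matrices, of 32285 genes in all, whose symbol has the form of a collagen chain name (Col, a type number, the letter a and a chain number). They were read in single cells of the Tbx1 lineage from mouse embryos at embryonic day 9.5 (E9.5), dissected from the pharyngeal region with the heart. All cells came from embryos labelled as outbred Swiss Webster that carried Tbx1Cre/+, in which Cre replaces 1 copy of Tbx1, so both groups were heterozygous for Tbx1, and GFP F/+, a reporter that Cre switches on. The control embryos (cHet) carried Kmt2d F/+ and the mutant embryos (cKO) Kmt2d F/F, so that Cre removes 1 or both copies of the histone methyltransferase gene Kmt2d in cells that have expressed Tbx1. GFP-positive living cells were sorted, so the cell types below are those of this lineage only. There were 2 libraries per genotype: the first replicate (Rep1) pooled 4 embryos per library and used a Next GEM kit, and the second (Rep2) pooled 3 embryos and used a GEM-X kit. The library is the replicate (n = 2 per genotype). The p-values below rest on a spread between pools that the fit shares across genes, so they do not measure the spread of a gene alone. Below, the kit stands for the replicate as a whole, including its embryos.

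Collagens are proteins of 3 chains wound into a triple helix, and they fall into classes by what they build. Fibrillar collagens (types I, II, III, V, XI, XXIV and XXVII) form the fibrils of connective tissue and cartilage, type IV collagen forms the sheet-like network of basement membranes, and the multiplexins (types XV and XVIII) lie where basement membrane meets tissue. FACITs (types IX, XII, XIV, XVI, XIX, XX and XXII) decorate fibrils, type VI forms beaded filaments, and the transmembrane collagens (types XIII, XVII, XXIII and XXV) sit in the cell membrane with a collagenous outer part. In the embryonic pharynx, collagens line the epithelia and the arch arteries and fill the mesenchyme between them.

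Of the 44 genes, 11 were fibrillar, 6 were of type IV, 2 were multiplexins, 6 were of type VI, 9 were FACITs, 3 formed short-chain networks (types VIII and X), 1 forms anchoring fibrils (type VII), 4 were transmembrane and 2 had no class here (types XXVI and XXVIII). The count is of unique molecular identifiers (UMIs), each standing for 1 captured transcript, and a level is given in CPM, the share of a gene in all UMIs of a cell type in a library, scaled to counts per 1000000. Levels are compared between types and libraries within a gene and not between genes, since capture at the 3′ end and any counting of intronic reads act on each gene differently. Both Cell Ranger versions named in the file headers count intronic reads by default, and whether the authors kept that setting is not given in the sources used here. The gene bodies of Col25a1 (468 kb), Col19a1 (326 kb) and Col23a1 (294 kb) are the kind on which that setting could act.

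The libraries held 179454146 to 234726019 UMIs, and 33448 cells were kept (5869 in cHet Rep1, 6291 in cKO Rep1, 9350 in cHet Rep2 and 11938 in cKO Rep2). The libraries stand in this order wherever 4 values are given below. Kmt2d was at 17.4, 15.2, 23.9 and 21.0 CPM over all kept cells; which exons Cre removes is not given in the sources used here, so these 3′ levels do not test the labels. The library cHet Rep1 stood apart: it was deposited with 37093 barcodes, against 9307 to 16775 in the others. Its kept cells held 60.0% of its UMIs against 86.1% to 91.6%, and 6324 of its barcodes were under 1000 UMIs against 573 to 1999. Of the kept barcodes, 12 were shared by both Rep1 libraries and 41 by both Rep2 libraries. The cells fell into 30 clusters, which were found with the collagen genes left out and were named from marker genes, so each type name below stands for cells like that type. The tested types were mesenchyme, multilineage primed progenitors (MLPs), branchiomeric muscle progenitors (BrM), the anterior second heart field with cardiac muscle (aSHF with cardiac muscle), the posterior second heart field (pSHF), endothelium, ectoderm, endoderm, otic vesicle and neuronal cells. An eleventh group of 2783 cells met no name, since pSHF markers passed but MLP markers (Hoxd3, Scn3a) were among its 10 leading genes, and it is called the Hoxd3-Scn3a cells.

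Mesenchyme carried the most collagen transcript and endothelium came next, with different genes in each. Summed over the 44 genes, collagen made up 2120, 2161, 2857 and 2870 CPM in mesenchyme and 1259, 1307, 1884 and 1884 CPM in endothelium. The sum in cHet and cKO of the same kit lay close in both, while Rep2 was higher than Rep1. Neuronal cells had 921 and 685 CPM in Rep1 and 443 and 427 CPM in Rep2, so there the order of the kits was the other way round. Since the types come from clusters of the same cells, levels across types are given as a description with no test, and types are called apart where the ranges of the 4 libraries did not overlap.

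**Figure D1:**
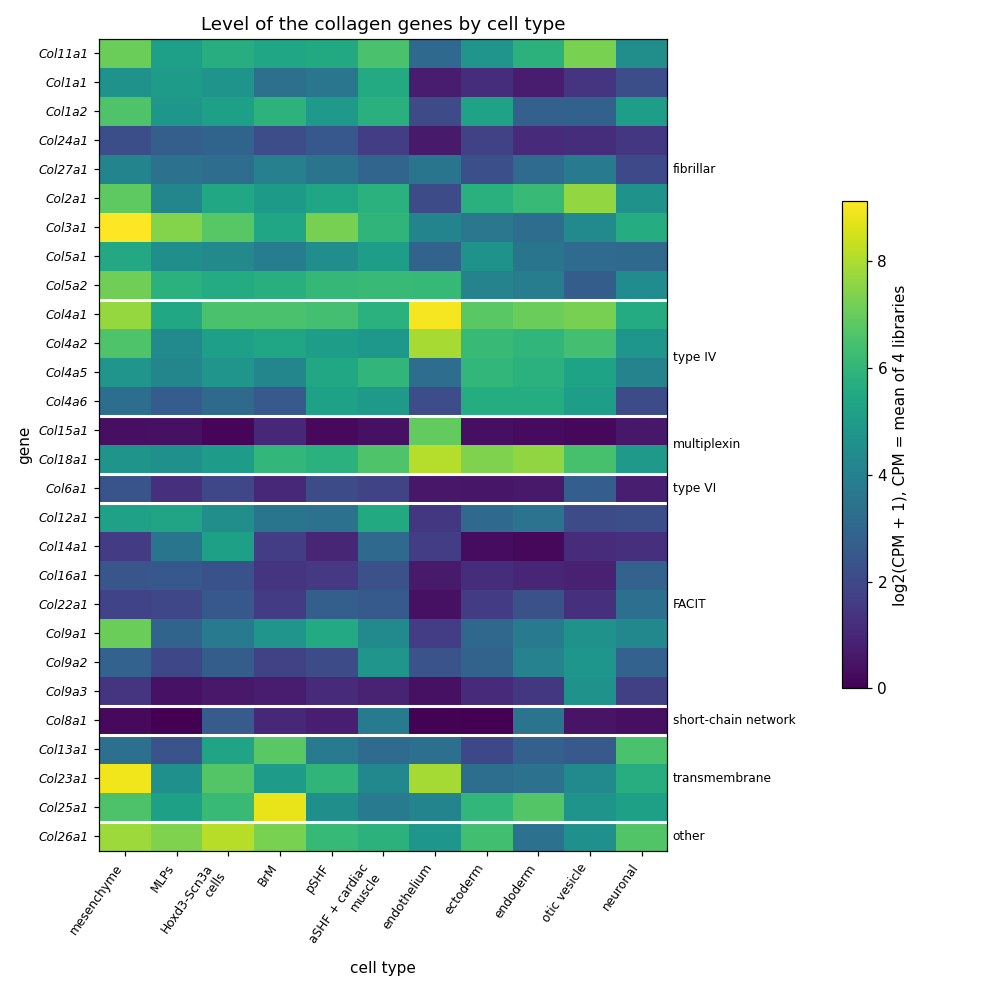
Mean level over the 4 libraries, as log2(CPM + 1), of the 28 collagen genes that reached 5 CPM in at least 1 cell type (rows, grouped by class) in the 11 tested cell types (columns). Col3a1 and Col5a2 are brightest in mesenchyme, Col2a1 and Col11a1 in otic vesicle, Col4a1, Col4a2, Col15a1 and Col18a1 in endothelium, and Col25a1 in BrM.

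The fibrillar genes were highest in mesenchyme. Their sum was 888, 934, 1335 and 1377 CPM there, against 112, 75.9, 148 and 137 CPM in endothelium, with all other types between 67.4 and 492 CPM. Col3a1, the single chain of type III collagen (GRCm38 chr1:45311538-45349706, + strand), had 557 ± 142 CPM in mesenchyme (mean ± SD, n = 4 libraries), 3.22-fold the 173 ± 49.0 CPM of the MLPs, with no overlap. The MLPs and the pSHF (151 ± 30.0 CPM) overlapped, and the lowest type was the endoderm with 8.54 CPM. Among single clusters Col3a1 peaked at 937 ± 148 CPM in a mesenchymal cluster of 1371 cells led by Adamtsl1, Tagln and Myl9. Col5a2, a chain of the type V collagen that nucleates fibrils, was also highest in mesenchyme (141 ± 34.3 CPM) and was level among aSHF with cardiac muscle, endothelium and pSHF (67.3 to 70.5 CPM).

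The 250 bases upstream of the Col3a1 start are shown because this gene marks the mesenchyme most strongly among the fibrillar members and was also lower in the cKO otic vesicle (below). The sequence is from RefSeq on GRCm38.p6 (chr1:45311288-45311537, + strand), overlaps no annotated GENCODE exon, and is printed 5′ to 3′ with the letters TTATAA, which hold TATAA on both strands, in capitals.
Col3a1: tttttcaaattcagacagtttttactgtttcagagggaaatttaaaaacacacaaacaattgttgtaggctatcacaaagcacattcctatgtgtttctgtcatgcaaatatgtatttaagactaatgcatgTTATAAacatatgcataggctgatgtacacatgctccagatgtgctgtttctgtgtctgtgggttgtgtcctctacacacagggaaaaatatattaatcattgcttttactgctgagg
Its GC content was 35.2%. Among 38 such windows for 35 collagen genes in RefSeq, 7 held TATAA (18.4%, against 22.8% of all 32851 windows), 13 held CCAAT (34.2% against 33.8%), 2 held TAATTA (5.26% against 4.84%) and 22 held GGGCGG (57.9% against 32.7%), each searched on both strands. A match of letters is a description and not a binding site.

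Col1a1 and Col1a2, the chains of type I collagen, did not follow each other closely. Col1a2 was highest in mesenchyme (97.1 ± 18.5 CPM, apart from BrM with 58.2 ± 6.50 CPM), whereas Col1a1 was highest in aSHF with cardiac muscle (46.6 ± 11.5 CPM), overlapping MLPs (31.3 CPM) and Hoxd3-Scn3a cells. Over the 30 clusters, which share the same 4 libraries, the Spearman correlation of their log2(CPM + 1) was 0.56. In ectoderm Col1a2 reached 37.2 ± 13.2 CPM, where Col1a1 held 0.0291 UMIs for each Col1a2 UMI, against 1.16 in MLPs.

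Among the cell types, the cartilage collagen Col2a1 was highest in the otic vesicle. Col2a1, the chain of type II collagen (chr15:97975602-98004695, - strand), was at 201 ± 21.1 CPM there, apart from mesenchyme (115 ± 6.32 CPM), which was apart from endoderm (69.6 ± 14.6 CPM). Col11a1, its partner in heterotypic fibrils, was at 155 ± 14.7 CPM in otic vesicle and 134 ± 44.8 CPM in mesenchyme, which overlapped. Col9a3 and Col9a2, chains of the type IX collagen that coats type II fibrils, were highest in the otic vesicle as well (24.6 ± 4.46 and 27.0 ± 5.51 CPM), but Col9a2 overlapped aSHF with cardiac muscle (26.1 ± 7.56 CPM). The cluster with the most Col2a1 was neither of these: a cardiac muscle cluster of 360 cells led by Actc1, Myl7 and Myl3 held 247 ± 52.9 CPM. The same cluster was the highest of the 30 for Col8a1, a short-chain network collagen (38.6 ± 23.9 CPM), and for Col4a5 (124 ± 25.9 CPM). The third chain of type IX did not share the pattern. Col9a1 (chr1:24177610-24252684, + strand) was highest in mesenchyme (134 ± 8.97 CPM), apart from pSHF (46.4 ± 7.20 CPM), and its correlation with Col9a2 over the 30 clusters was 0.10 (Spearman). For each Col9a2 UMI there were 22.0 Col9a1 UMIs in mesenchyme and 0.524 in endothelium.

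**Figure D2:**
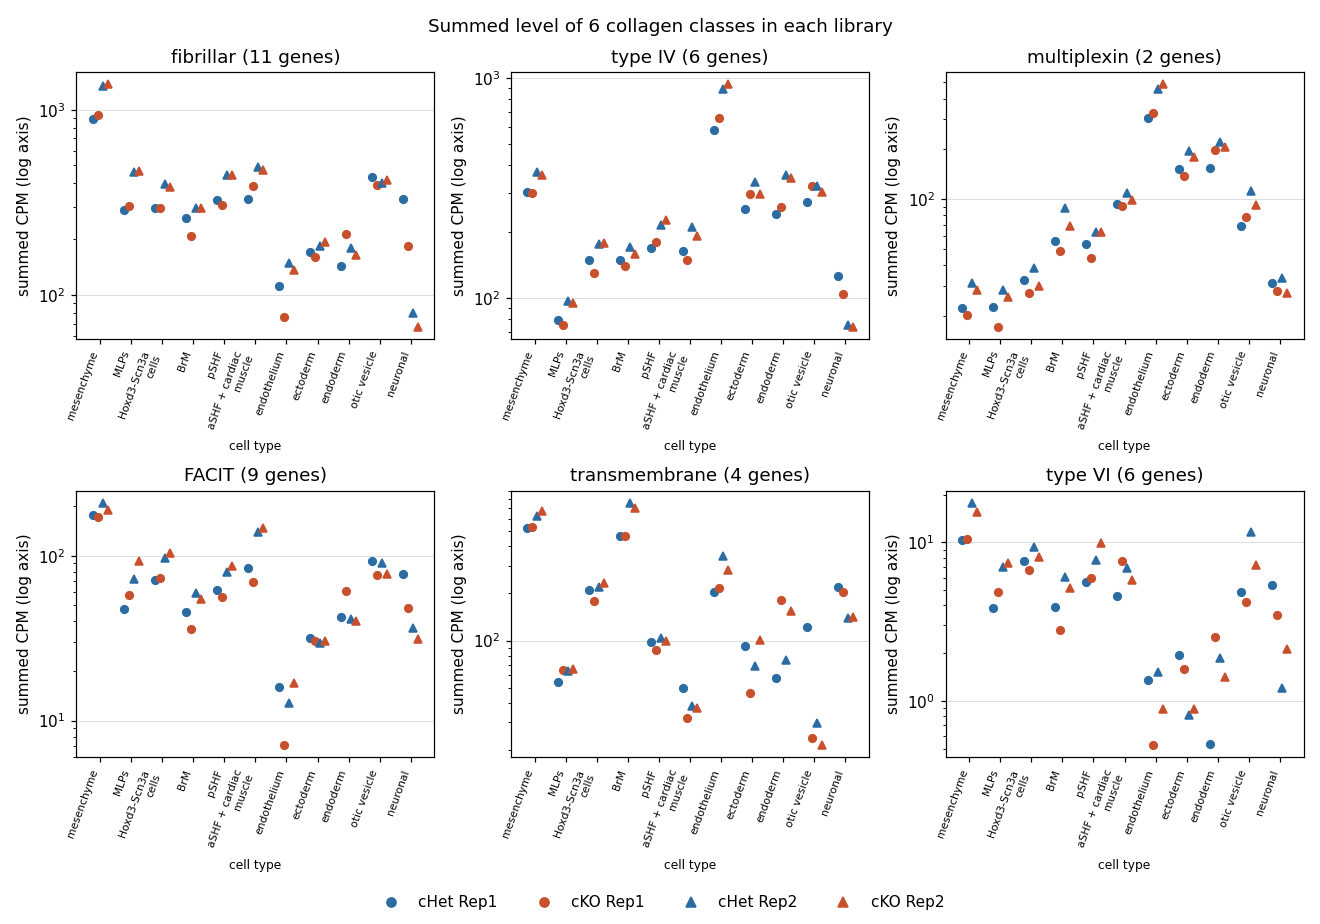
Summed CPM (log axis) of 6 collagen classes in each of the 4 libraries (circles Rep1, triangles Rep2; blue cHet, orange cKO) for the 11 tested cell types. Rep2 lies above Rep1 for fibrillar genes in mesenchyme and type IV genes in endothelium, and in the otic vesicle the transmembrane sum of cHet Rep1 (122 CPM) stands above the other 3 libraries (21.4 to 29.8 CPM).

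The basement membrane genes split into 2 pairs with different cell types. Col4a1 and Col4a2, the chains of the type IV collagen found in nearly every basement membrane, were highest in endothelium, at 515 ± 124 and 240 ± 51.1 CPM, each apart from mesenchyme (202 ± 25.2 and 96.5 ± 7.37 CPM). Col4a5 and Col4a6 were highest in epithelia and heart field cells: Col4a5 in ectoderm (64.8 ± 14.2 CPM), aSHF with cardiac muscle (64.0 ± 14.4 CPM) and endoderm (55.9 ± 13.6 CPM), which overlapped, and Col4a6 in endoderm (49.8 ± 15.6 CPM) and ectoderm (49.5 ± 10.3 CPM). Endothelium was the lowest type for Col4a5 (8.59 CPM). Col4a3 and Col4a4, the chains of the mature glomerular network, were nearly silent, with 66 and 312 UMIs in all kept cells. Their means over the libraries were at most 1.38 and 0.804 CPM in a type, with up to 3.73 and 2.13 CPM in a library of endoderm.

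Within each pair the genes moved together across the clusters. The Spearman correlation over the 30 clusters was 0.97 for Col4a1 with Col4a2 and 0.96 for Col4a5 with Col4a6, but -0.15 for Col4a1 with Col4a5. The clusters share libraries and depth, so these are descriptions. The UMIs of Col4a1 per UMI of Col4a2 ranged only from 1.58 in ectoderm to 2.63 in pSHF, over 12 groups of cells. Each pair lies head to head on its chromosome. Col4a1 (chr8:11198423-11312826, - strand) and Col4a2 (chr8:11312805-11449287, + strand) overlap at their starts in the GENCODE annotation, and Col4a6 (chrX:141165403-141474076, - strand) ends its 5′ side just before Col4a5 begins (chrX:141475385-141689234, + strand). The 22 bases that Col4a1 and Col4a2 share, at chr8:11312805-11312826 of GRCm38.p6, are shown on the + strand because both genes start within them.
Col4a1 and Col4a2: agtgcgcgggcggcgtctccaa

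Both multiplexin genes were highest in endothelium, Col15a1 almost alone there. Col15a1 (chr4:47208161-47313167, + strand) was at 86.2 to 158 CPM in endothelium (120 ± 36.7), while the next type, BrM, had 1.02 ± 0.339 CPM. Within endothelium it was concentrated in the largest cluster (154 ± 55.2 CPM; leading genes Emcn, Cdh5, Cldn5), with 33.9 ± 29.6 CPM in a cluster led by Gja4 and Npr3 and 11.5 ± 9.13 CPM in one led by Etv2, Tal1 and Lmo2. The cluster led by Gja4 had only 2 cells in cKO Rep1. Col18a1, whose C-terminal fragment is endostatin, was broader: endothelium had 275 ± 53.8 CPM, apart from endoderm (194 ± 28.9 CPM), and endoderm and ectoderm (165 ± 25.9 CPM) overlapped but were apart from aSHF with cardiac muscle (97.6 ± 7.12 CPM). The 250 bases upstream of the RefSeq start of Col15a1 (GRCm38.p6 chr4:47207762-47208011, + strand, no GENCODE exon) are shown because no other member had so large a gap to its next type (118-fold); they hold none of the 4 runs of letters above.
Col15a1: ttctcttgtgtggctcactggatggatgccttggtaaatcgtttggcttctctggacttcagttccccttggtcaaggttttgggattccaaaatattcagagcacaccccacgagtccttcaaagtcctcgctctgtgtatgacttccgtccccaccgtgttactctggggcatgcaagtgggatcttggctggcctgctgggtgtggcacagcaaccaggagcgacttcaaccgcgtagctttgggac

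The transmembrane collagens led in BrM or mesenchyme. Col25a1 (chr3:130131501-130599877, + strand), known for its part in the innervation of muscle, was at 455 ± 139 CPM in BrM, apart from endoderm (102 ± 64.0 CPM), and all 3 BrM clusters (408 to 544 CPM) lay above every other cluster. Col13a1, which acts at the neuromuscular junction, was highest in BrM (109 ± 24.8 CPM) and in neuronal cells (89.8 ± 37.0 CPM), which overlapped, and both were apart from the Hoxd3-Scn3a cells (39.2 ± 11.3 CPM). Col23a1 (chr11:51289920-51583918, + strand) was highest in mesenchyme (483 ± 63.9 CPM), then endothelium (236 ± 59.1 CPM) and Hoxd3-Scn3a cells (102 ± 13.5 CPM), each apart from the next, and reached 1004 ± 179 CPM in a mesenchymal cluster of 2363 cells led by Pcdh9, Dach2 and Lingo2. The fourth, Col17a1, the collagen of hemidesmosomes, had only 37 UMIs in all kept cells. Col26a1, of no class here, was highest in the Hoxd3-Scn3a cells (282 ± 37.9 CPM), overlapping mesenchyme (218 ± 29.7 CPM), and lowest in endoderm (9.78 CPM).

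Other FACITs were low but patterned. Col12a1 was highest in aSHF with cardiac muscle (46.1 ± 25.2 CPM), which overlapped MLPs (39.2 ± 13.1 CPM) and mesenchyme (36.0 ± 7.92 CPM), and Col14a1 was highest in the Hoxd3-Scn3a cells (35.1 ± 12.5 CPM), apart from MLPs (10.7 ± 3.59 CPM). Col19a1 was low in every type, with ectoderm in the lead (3.78 ± 1.94 CPM). The cluster with the most Col19a1 was the endothelial one led by Etv2 (8.22 ± 2.58 CPM). The remaining members were low. Of the 44 genes, 28 reached a mean of 5 CPM in at least 1 tested type, and 15 reached 50 CPM in every library of a type. Among the lower fibrillar genes, Col5a1 was highest in mesenchyme (44.9 ± 14.1 CPM), as was Col27a1 (16.5 ± 2.40 CPM), while Col24a1 was highest in the Hoxd3-Scn3a cells (6.69 ± 0.482 CPM). Col10a1, the collagen of hypertrophic cartilage, had 30 UMIs in all kept cells. Col11a2, Col5a3, Col20a1, Col8a2, Col7a1 and Col28a1 each had 303 to 467 UMIs. The type VI genes summed to 10.3 to 17.8 CPM in mesenchyme and to no more than 11.6 CPM in any library of another tested type.

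Between genotypes, few collagen genes differed, and the clearest was Col25a1 in endoderm. Summed counts of each type and library were fitted over all genes with the kit as a block, and an adjusted p under 0.05 counted as a call (edgeR quasi-likelihood test, Benjamini-Hochberg over all genes of the type). In the 11 types, 289 tests covered 41 members, of which 18 could be tested in every type; Col4a3, Col10a1 and Col17a1 were too low in all. There were 8 calls, 3 higher and 5 lower in cKO, each for a different gene, in 6 types. They made up 2.77% of the collagen tests, beside 0.516% of the tests of all genes. Of the 289 log2 fold changes, 280 were under 1 in size. With 2 libraries per genotype an exact permutation test of a single gene without the block cannot go below p = 0.333. Swaps within replicates only would set a higher floor. Every call thus rests on the fit across genes. None of the 8 calls held when the block was left out. The fits that left out 1 library had no block either, so they do not show what a call owes to that library.

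**Figure D3:**
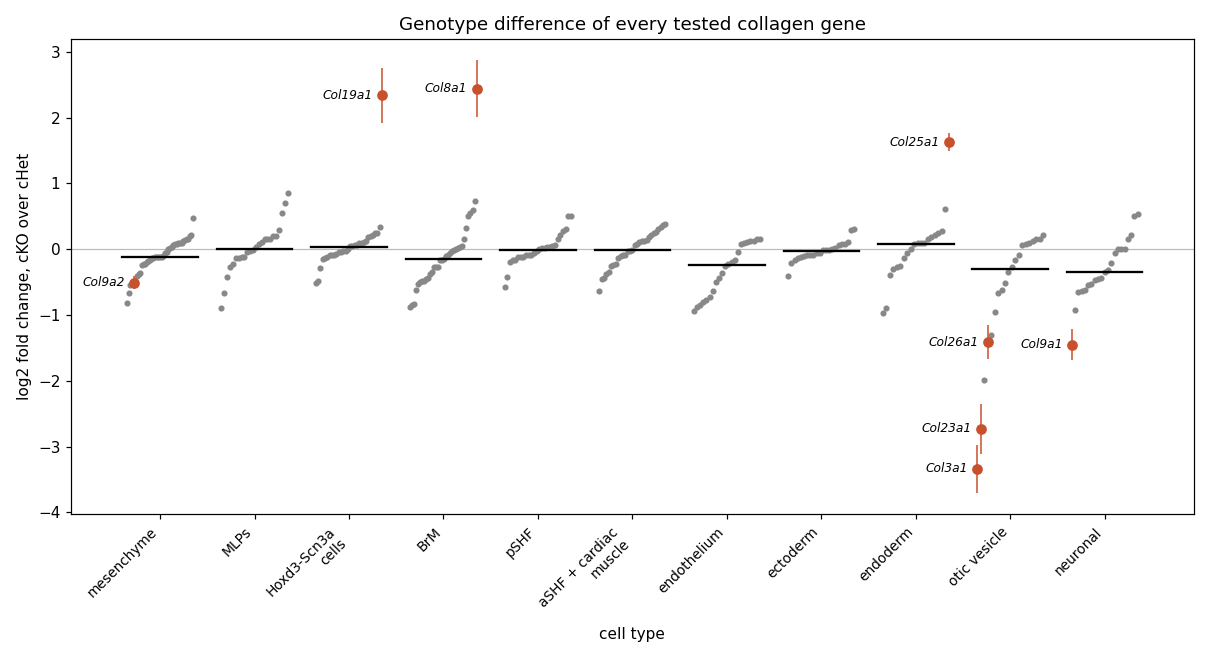
Log2 fold change, cKO over cHet, of every tested collagen gene (points, sorted) in each of the 11 types, with the median as a black line. The 8 called genes are orange with their standard error; they lie between -3.34 (Col3a1, otic vesicle) and 2.44 (Col8a1, BrM), while medians lie between -0.35 (neuronal) and 0.09 (endoderm).

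Taken by type, the collagen genes leaned to lower values in cKO in BrM (24 of 34 below 0), endothelium (15 of 22), mesenchyme (26 of 41), neuronal cells (15 of 21), otic vesicle (13 of 20) and ectoderm (14 of 22). In endoderm 12 of 20 and in the Hoxd3-Scn3a cells 16 of 30 lay above 0, and MLPs, aSHF with cardiac muscle and pSHF were near even. The median log2 fold change of all genes lay between -0.01 and 0.00 in every type. The share of collagen genes with an unadjusted p under 0.05 was 39.0% in mesenchyme (10.7% of all genes), 35.0% in otic vesicle (5.98%), 29.4% in BrM (7.92%), 28.6% in neuronal cells (723 of all 12047 genes) and 27.3% in endothelium (4.43%). It was 20.8% in MLPs (5.06%), 17.2% in aSHF with cardiac muscle (4.93%), 16.7% in the Hoxd3-Scn3a cells (6.65%), 3 of 20 genes in endoderm (4.31%), 7.69% in pSHF (6.14%) and 4.55% in ectoderm (3.64%). The members share libraries and cells, so these shares are descriptions.

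Col25a1 was higher in cKO endoderm in both replicates. It stood at 34.1 CPM in cHet Rep1 and 167 CPM in cKO Rep1, and at 61.8 CPM in cHet Rep2 and 145 CPM in cKO Rep2. Both cKO libraries lay above both cHet libraries, and how many of all genes did so was not counted. The log2 fold change was 1.63 ± 0.14 (SE), a 3.09-fold difference, with an adjusted p of 6.77e-26 in the edgeR fit. Within Rep1 and Rep2 it was 2.22 and 1.26, a gap wider than this SE. Of all genes tested in endoderm, 0.470% were called. These levels rested on 64, 265, 266 and 918 UMIs in 92, 65, 185 and 314 cells, and the 5 cells with the most UMIs held 62.5%, 58.1%, 35.3% and 23.4% of them. The same gene stood at 54.7, 21.5, 23.5 and 38.5 CPM in the barcodes under 1000 UMIs. The BrM markers, the list of the type with the most Col25a1, summed to 13.3, 14.5, 5.11 and 4.58 CPM in endoderm, with none of its 6 genes at 0, so they did not rise in cKO in both kits. The 4 notochord markers (T, Noto, Shh and Foxa2) did, at 21.3, 35.9, 42.8 and 55.1 CPM with none at 0. Shh and Foxa2 are also among the 7 endoderm markers, which rose in cKO in both kits too (305, 361, 514 and 573 CPM). The part of these markers in the difference was not tested. Alternatives kept the direction in 12 of 12 fits (log2 fold change 1.47 to 2.01) and the call in 7, DESeq2 among them (adjusted p = 7.31e-06).

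The sequence upstream of the RefSeq start of Col25a1 (GRCm38.p6 chr3:130180595-130180844, + strand) is shown beside this result; the GENCODE gene begins further upstream, so the window lies in an intron there. Capitals mark an exact 16-base repeat at bases 90 and 176. Of the 32851 RefSeq windows, 1631 (4.96%) held an exact repeat at least as long.
Col25a1: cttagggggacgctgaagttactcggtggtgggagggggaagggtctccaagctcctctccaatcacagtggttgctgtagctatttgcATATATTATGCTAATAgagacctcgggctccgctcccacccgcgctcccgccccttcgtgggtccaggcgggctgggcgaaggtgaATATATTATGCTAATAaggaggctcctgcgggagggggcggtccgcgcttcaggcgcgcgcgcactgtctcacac

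In the other types Col25a1 was not called. It was at 35.5 to 92.2 CPM in ectoderm, with a log2 fold change of -0.05 ± 0.25, and at 47.5, 13.9, 22.2 and 18.3 CPM in the otic vesicle (-0.96 ± 0.26, adjusted p = 0.123). In BrM, where it was highest, the 4 libraries stood at 328, 344, 596 and 551 CPM (0.00 ± 0.07), so the larger difference lay between the replicates. In MLPs it stood at 25.1, 42.2, 31.7 and 41.0 CPM (0.55 ± 0.15, adjusted p = 0.378).

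**Figure D4:**
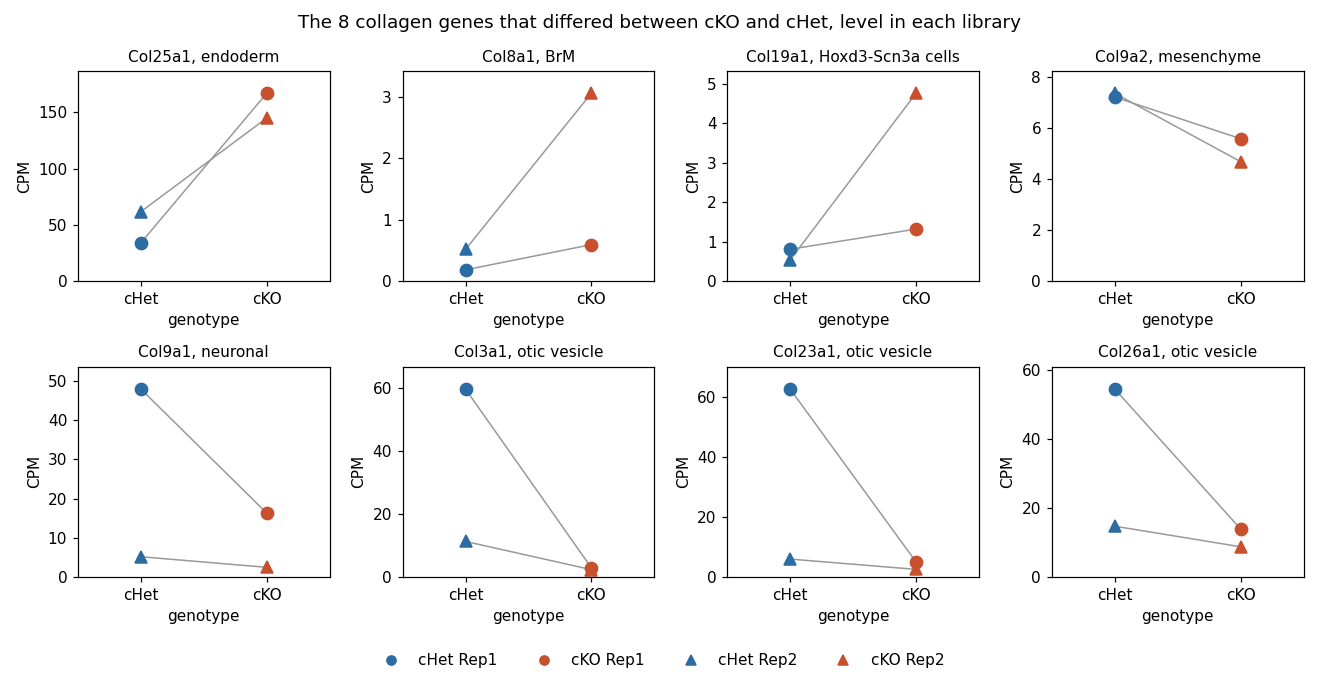
CPM of the 8 called collagen genes in the type named above each panel (circles Rep1, triangles Rep2; blue cHet, orange cKO; grey lines join the libraries of a kit). Col25a1 separates the genotypes in both kits, Col8a1 and Col19a1 rest on cKO Rep2, and the otic vesicle and neuronal genes are highest in cHet Rep1.

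The other 2 genes that were higher in cKO rested on few UMIs, most of them in cKO Rep2. Col8a1, whose chains form the hexagonal network of some vessel-associated matrices, was at 0.185, 0.595, 0.518 and 3.06 CPM in BrM, from 2, 7, 13 and 78 UMIs. Only cKO Rep2 stood clear of the others. Its log2 fold change was 2.44 ± 0.43 (adjusted p = 0.00938; 0.909% of all genes called in BrM). In cKO Rep2, 35 of the 78 UMIs came from 5 cells. Col19a1, a FACIT expressed in the muscle and nervous system of embryos, was at 0.809, 1.32, 0.536 and 4.76 CPM in the Hoxd3-Scn3a cells, from 8, 12, 9 and 72 UMIs. Again cKO Rep2 alone was high, and 43 of its 72 UMIs lay in 5 of 976 cells. Its log2 fold change was 2.34 ± 0.42 (adjusted p = 6.05e-04, with 0.513% of all genes called in that type). Without cKO Rep2, in a fit with no block, it was 1.17.

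In mesenchyme, the type with the most cells, Col9a2 was lower in cKO. It had 7.22 and 7.37 CPM in the cHet libraries and 5.59 and 4.69 CPM in the cKO libraries of Rep1 and Rep2. The log2 fold change was -0.51 ± 0.10 (adjusted p = 0.0218), in a type where 1.56% of all genes were called. With 1 library left out, in fits with no block, it ranged from -0.78 (without cKO Rep1) to -0.23 (without cKO Rep2). Some markers of other types were also lower in cKO mesenchyme in both kits. The 7 cardiac muscle ones stood at 52.1, 37.8, 152 and 86.0 CPM and the 7 endothelial ones at 11.1, 8.32, 15 and 12.3 CPM, with none at 0. Others were higher in both kits, such as the 7 MLP ones (264, 293, 408 and 418 CPM) and the 7 neuronal ones (16.8, 18.5, 22.2 and 27.0 CPM). Col9a2 itself was at 35.1 CPM in the cardiac muscle cluster led by Armh4, Myocd and Smyd1. The part of such cells in the difference was not tested. Its UMIs in mesenchyme (403, 527, 775 and 495) were spread over many cells, the top 5 cells holding at most 4.71%. In the 9 mesenchymal clusters in which Col9a2 could be fitted alone it was lower in cKO in all, with log2 fold changes from -1.50 to -0.08. The same type tested 41 members, with a median log2 fold change of -0.12 against 0.00 for all genes, and 16 had an unadjusted p under 0.05. Among uncalled genes with at least 20 UMIs in each library and the same sign in both replicates, the changes of largest size were Col7a1 (-0.53 ± 0.24), the collagen of anchoring fibrils, Col22a1 (-0.50 ± 0.14) and Col9a3 (-0.37 ± 0.17), with adjusted p-values of 0.467, 0.136 and 0.479. The abundant genes moved little: Col3a1 had a log2 fold change of 0.14 ± 0.05, Col1a2 of -0.11 ± 0.04 and Col4a1 of -0.04 ± 0.04.

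Fitting the mesenchymal clusters singly, a choice made after seeing the data, gave 10 collagen calls in 282 tests of 10 clusters (3.55%, beside 0.703% of all gene tests), of which 3 were higher and 7 lower in cKO. Col25a1 went both ways: it was higher in the cluster led by Kcnmb2 and Cyp26a1 (143, 177, 128 and 214 CPM; log2 fold change 0.53 ± 0.09, adjusted p = 3.89e-07) and lower in the cluster led by Igf1, Ptx3 and St8sia4 (35.8, 26.1, 41.2 and 27.6 CPM; -0.52 ± 0.14, adjusted p = 0.0391). In both clusters each cKO library differed from the cHet library of its kit in that direction. Col1a2 was lower in the cluster led by Pcdh9, Dach2 and Lingo2 (86.5, 69.1, 103 and 79.8 CPM; adjusted p = 0.0277) and in the one led by Gabra2, Galntl6 and Lsamp (52.5, 43.9, 75.7 and 51.7 CPM; adjusted p = 0.0124). The cluster with the most Col3a1 and Col11a1, led by Adamtsl1, Tagln and Myl9, had 3 calls: Col11a1 was higher (132, 175, 257 and 319 CPM), while Col1a1 (63.0, 38.5, 84.9 and 72.6 CPM) and Col14a1 (4.10, 1.52, 12.7 and 6.67 CPM) were lower. Col3a1 was higher in the cluster led by Cyp26a1, Vcam1 and Corin (242, 280, 376 and 460 CPM; adjusted p = 0.0419), and Col9a2 was lower in 2 clusters. The difference between clusters in these changes was not tested.

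In the 10 clusters of BrM, aSHF, cardiac muscle, pSHF and endothelium fitted singly, 2 of 220 collagen tests were called (0.909%, beside 0.335% of all gene tests), both Col23a1 and both lower in cKO. It stood at 54.6, 16.8, 13.3 and 11.7 CPM in a BrM cluster led by Tlx1 and at 31.2, 1.34, 7.45 and 1.42 CPM in the cardiac muscle cluster led by Actc1. In both, cHet Rep1 was the highest library. Its level in the barcodes under 1000 UMIs was 136, 83.7, 95.7 and 90.3 CPM.

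The 3 calls in the otic vesicle were all lower in cKO and were largest within Rep1. Col3a1 stood at 59.7, 2.94, 11.3 and 2.33 CPM, a log2 fold change of -3.34 ± 0.36 (adjusted p = 5.37e-05). Col23a1 stood at 62.5, 5.04, 5.95 and 2.53 CPM (-2.73 ± 0.38, adjusted p = 7.95e-04), and Col26a1 at 54.4, 13.9, 14.7 and 8.75 CPM (-1.41 ± 0.26, adjusted p = 0.0108). For all 3, cHet Rep1 lay far above the other libraries and cHet Rep2 was the next highest, close to cKO Rep1 for Col23a1 and Col26a1. In this type 0.603% of all genes were called. The cells were few (100, 90, 132 and 270), and of the 147 Col3a1 UMIs of cHet Rep1 57.1% lay in 5 cells.

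Markers of MLPs, BrM and mesenchyme were also lower in cKO in both kits, and those of endothelium in Rep1. In the otic vesicle cells the summed MLP markers stood at 58.5, 7.56, 13.5 and 2.72 CPM, the BrM markers at 33.3, 3.78, 8.46 and 2.14 CPM, and the endothelial markers at 47.1, 0.839, 4.07 and 4.66 CPM, with none of the 7, 6 and 7 genes at 0 over the 4 libraries. The 9 mesenchyme markers summed to 287, 216, 135 and 126 CPM, and the 7 otic vesicle markers themselves to 527, 586, 800 and 907 CPM. In the barcodes under 1000 UMIs, Col3a1 was at 219, 124, 47.8 and 68.1 CPM and Col26a1 at 108, 93.3, 37.9 and 51.8 CPM. The part of these in the 3 differences was not tested. Without cHet Rep1, in fits with no block, the log2 fold changes were -1.94 for Col3a1, -0.51 for Col23a1 and -0.20 for Col26a1. With doublets kept they were -0.82, -0.26 and -0.42, none of them called. Col2a1 and Col11a1, the highest fibrillar genes of the otic vesicle, did not follow. Within Rep1 and Rep2 the log2 fold change was 0.35 and 0.09 for Col2a1, and 0.12 and 0.12 for Col11a1. The fibrillar sum, which includes Col3a1, was 432, 392, 404 and 418 CPM.

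In neuronal cells Col9a1 was called lower in cKO, at 47.9, 16.3, 5.16 and 2.46 CPM, but the larger difference was between the replicates. Its log2 fold change was -1.45 ± 0.24 (adjusted p = 0.0173; 0.349% of all genes called), being -1.49 within Rep1 and -0.90 within Rep2. Without cHet Rep1, in a fit that has no block, it turned to 1.15. Mesenchyme markers summed to 552, 383, 239 and 200 CPM in these cells and neuronal markers to 2062, 2815, 6065 and 6759 CPM, and Col9a1 stood at 64.6, 43.1, 19.0 and 17.0 CPM in the barcodes under 1000 UMIs. Their part in the difference was not tested. Col3a1 fell just outside the threshold there (-0.93, adjusted p = 0.0508).

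No collagen gene was called in MLPs, aSHF with cardiac muscle, ectoderm, endothelium or pSHF by edgeR after the filter on low counts, and DESeq2 called none there either. Other settings did call members there. With every gene of at least 1 count tested, these were Col2a1 (adjusted p = 3.36e-08) and Col23a1 in aSHF with cardiac muscle, and Col26a1 (adjusted p = 1.25e-06), Col25a1 (adjusted p = 9.71e-07) and Col3a1 (adjusted p = 6.43e-04) in endothelium. Col26a1 in endothelium was also called with doublets kept (adjusted p = 0.0260) and with collagen genes among the variable genes (adjusted p = 0.0332), Col4a1 in MLPs with doublets kept, and Col3a1 in ectoderm with cells of at least 1000 genes (adjusted p = 0.0419). Among all genes, 0.0624% were called in MLPs, 0.740% in pSHF and 0% in each of the other 3. With an unadjusted p under 0.05 there were 5 of 24 members in MLPs, 5 of 29 in aSHF with cardiac muscle, 1 of 22 in ectoderm, 6 of 22 in endothelium and 2 of 26 in pSHF. Of all genes, 567 in MLPs, 700 in aSHF with cardiac muscle, 462 in ectoderm, 578 in endothelium and 796 in pSHF were under that p. The endothelial collagens that define that type did not differ clearly. Col4a1 had a log2 fold change of 0.13 ± 0.06 and Col4a2 of 0.16 ± 0.07 (adjusted p = 1.00 each), and the type IV sum was 582, 658, 889 and 938 CPM. Col26a1 and Col3a1 were lower in cKO than in the cHet library of the same kit, Col26a1 at 35.7, 18.3, 31.9 and 20.9 CPM (-0.77 ± 0.12, adjusted p = 0.366) and Col3a1 at 18.3, 9.43, 22.4 and 15.2 CPM (-0.72 ± 0.14, adjusted p = 0.557). In the largest endothelial cluster alone, the log2 fold change was -0.54 for Col26a1 and 0.10 for Col3a1. Col26a1 was at 18.8 CPM in that cluster, at 51.1 CPM in the cluster led by Etv2 and at 58.8 CPM in the one led by Gja4, which held 69, 2, 64 and 90 cells. The part of this make-up in the values was not tested. Over the alternatives the value of Col26a1 ran from -1.10 to -0.14.

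In the heart field cells Col2a1 stood at 55.8, 23.9, 76.0 and 64.5 CPM in aSHF with cardiac muscle (-0.64 ± 0.19, adjusted p = 0.819), and Col9a2 at 25.3, 15.9, 33.5 and 29.7 CPM (-0.37 ± 0.14, adjusted p = 0.900). Both ranges overlapped between genotypes. The make-up of the type, of 560, 339, 620 and 779 cells, differed between libraries. The cardiac muscle cluster with the most Col2a1 held 74, 27, 123 and 136 of these cells. The other cardiac muscle cluster held 85, 20, 103 and 118, and the cardiac muscle markers summed to 4121, 2560, 14084 and 12803 CPM. The part of this make-up in the Col2a1 and Col9a2 values was not tested. Without cardiac muscle the log2 fold change of Col2a1 was -0.49. With 1 library left out, in fits with no block, the value in the whole type ranged from -1.30 (without cKO Rep2) to -0.15 (without cKO Rep1). In pSHF Col4a5 and Col4a6 had positive values in both replicates (0.31 ± 0.11 and 0.28 ± 0.12, adjusted p = 0.370 and 0.629). In MLPs the FACIT Col14a1 was at 7.08, 10.9, 9.20 and 15.5 CPM (0.70 ± 0.26, adjusted p = 0.917). In BrM, Col12a1 was at 5.93, 9.60, 11.5 and 15.5 CPM (0.55 ± 0.15, adjusted p = 0.105) and Col1a1 at 7.79, 4.59, 14.6 and 10.6 CPM (-0.53 ± 0.15, adjusted p = 0.144).

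The same limits, at least 20 UMIs in each library and the same sign in both replicates, chose the uncalled genes of the other types. Below that limit of UMIs there were larger values, such as Col1a2 (-1.98 ± 0.52, adjusted p = 0.111) in otic vesicle and Col8a1 (-0.97 ± 0.32, adjusted p = 0.283) in endoderm. In the Hoxd3-Scn3a cells they were Col9a1 (-0.52 ± 0.16) and Col6a2 (-0.48 ± 0.28), with adjusted p-values of 0.139 and 0.851, beside the Col18a1 value given with its class. In ectoderm Col3a1 had -0.40 ± 0.24, Col1a2 0.31 ± 0.13 and Col5a1 -0.21 ± 0.16, and in endoderm Col4a6 had -0.27 ± 0.17 and Col5a2 0.09 ± 0.28, all with an adjusted p of 1.00. In endothelium Col25a1 had -0.94 ± 0.35 (adjusted p = 1.00), most of it within Rep1 (19.7, 3.93, 22.6 and 18.9 CPM), and -0.47 in the largest endothelial cluster alone. In neuronal cells Col1a2 had -0.54 ± 0.18, Col25a1 0.50 ± 0.20 and Col4a1 -0.35 ± 0.15 (adjusted p = 0.418, 0.674 and 0.726), and in otic vesicle Col9a1 had -0.66 ± 0.23 and Col27a1 -0.51 ± 0.28 (adjusted p = 0.427 and 0.923). In BrM Col22a1, a FACIT of tissue junctions, had -0.83 ± 0.31 (adjusted p = 0.389), in MLPs Col23a1 -0.42 ± 0.17 (0.934), in aSHF with cardiac muscle Col14a1 0.38 ± 0.18 (0.999) and in pSHF Col24a1 -0.42 ± 0.31 (0.988).

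Class sums were compared within each kit, without a test. Within Rep1 and Rep2 the log2 ratio of cKO over cHet was 0.07 and 0.04 for fibrillar genes in mesenchyme, 0.18 and 0.08 for type IV in endothelium, 0.10 and 0.10 for multiplexins in endothelium, -0.05 and -0.15 for FACITs in mesenchyme, and 0.01 and -0.12 for transmembrane genes in BrM. Outside these leading types some ratios were larger in both kits. Among them were FACITs in MLPs (0.28 and 0.38) and transmembrane genes in the otic vesicle (-2.35 and -0.48). In endoderm the transmembrane sum followed Col25a1, at 58.0, 182, 75.5 and 155 CPM. The multiplexin sum was lower in cKO than in cHet of the same kit in mesenchyme, MLPs, Hoxd3-Scn3a cells, BrM, aSHF with cardiac muscle, ectoderm and neuronal cells, by no more than 0.38 on the log2 scale, and Col18a1 was not called in any of them (BrM -0.27, adjusted p = 0.194; Hoxd3-Scn3a cells -0.29 ± 0.10, adjusted p = 0.233).

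The genes that make, cut, cross-link, bind and degrade collagen were read as a list of 80 partners. They gave 13 calls in 659 tests (1.97%, beside the 0.516% of all gene tests), 4 higher and 9 lower in cKO, for 9 genes in mesenchyme, BrM and otic vesicle. The folding genes of highest level were broad: Serpinh1, the collagen chaperone HSP47, ranged from 279 CPM in otic vesicle to 697 CPM in endothelium, P4hb from 164 to 252 CPM and Ppib from 432 to 691 CPM over the tested types, and none of the 3 was called. Among the receptors Itgb1 and the integrin chain Itga1 were highest in endothelium (459 and 108 CPM), and Ddr2, a kinase receptor of fibrillar collagen, in mesenchyme (116 CPM). Loxl2, a cross-linking enzyme that acts on type IV collagen, was highest in endoderm (242 CPM), and Adamts3, a procollagen peptidase, in the Hoxd3-Scn3a cells (23.2 CPM). Sparc, a collagen-binding protein of basement membranes, was highest in endothelium (661 CPM), as was the peroxidase Pxdn (89.8 CPM), and the laminin chain Lama2 in mesenchyme (98.2 CPM). Of the fibril partners Fn1 was highest in endoderm (385 CPM), and Lum and Sparcl1 in mesenchyme (147 and 121 CPM). Of the degradation genes Mrc2, an uptake receptor of collagen, was highest in mesenchyme (73.3 CPM), and Mmp14 and Timp3 in endothelium (70.7 and 161 CPM).

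Sparc, Pcolce and Loxl1 were lower in cKO in both mesenchyme and BrM. Sparc stood at 71.2, 56.6, 124 and 94.2 CPM in mesenchyme (log2 fold change -0.36 ± 0.04, adjusted p = 0.00121) and at 91.0, 62.5, 181 and 109 CPM in BrM (-0.62 ± 0.08, adjusted p = 0.00118). Pcolce, the enhancer of procollagen C-proteinase, stood at 40.2, 28.5, 57.0 and 42.2 CPM in mesenchyme (-0.46 ± 0.05, adjusted p = 5.84e-04) and at 19.8, 13.4, 31.4 and 16.4 CPM in BrM (-0.76 ± 0.12, adjusted p = 0.00624). Loxl1, a lysyl oxidase, stood at 7.40, 5.40, 6.05 and 4.43 CPM in mesenchyme (-0.44 ± 0.09, adjusted p = 0.0362) and at 6.12, 3.99, 8.84 and 4.71 CPM in BrM (-0.78 ± 0.18, adjusted p = 0.0483). In each kit the cKO library was below the cHet library for all 3 genes in both types. Some markers of other types were also lower in cKO BrM in both kits. The 7 endothelial ones stood at 37.3, 14.9, 29.5 and 20.3 CPM and the 9 mesenchyme ones at 418, 304, 368 and 341 CPM, with none at 0. Others were higher there in both kits, such as the 7 MLP ones (251, 284, 378 and 406 CPM) and the 7 aSHF ones (443, 464, 674 and 683 CPM). In mesenchyme the endothelial and cardiac muscle markers were lower in both kits and the MLP and neuronal ones higher, as given beside Col9a2. Sparc was highest in endothelium (661 CPM). The part of these markers in the differences in either type was not tested. Pcolce and Sparc were lower in all 10 mesenchymal clusters fitted singly (-0.86 to -0.11 and -0.84 to -0.05).

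Crtap, part of the prolyl 3-hydroxylation complex, and the laminin chain Lama4 were higher in cKO mesenchyme, at 19.0, 23.2, 36.0 and 42.9 CPM and at 15.6, 18.9, 31.8 and 38.0 CPM (0.28 ± 0.05 and 0.28 ± 0.06, adjusted p = 0.0196 and 0.0254). Crtap was higher in 10 of 10 clusters and Lama4 in 9. In BrM, Ddr2 was lower (12.8, 5.61, 7.69 and 4.08 CPM; -1.01 ± 0.17, adjusted p = 0.00624), while Pcolce2 (23.4, 33.1, 21.3 and 28.9 CPM; 0.49 ± 0.11) and Lum (22.7, 34.0, 17.3 and 29.4 CPM; 0.71 ± 0.11) were higher. In the otic vesicle Lum (13.0, 0.420, 4.07 and 1.55 CPM) and P3h2 (24.0, 2.10, 4.70 and 2.33 CPM), a prolyl 3-hydroxylase, were lower in cKO, again with cHet Rep1 far above the rest. None of the 13 calls held without the block, and DESeq2 kept 3: Sparc in both types and Pcolce in mesenchyme.

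**Figure D5:**
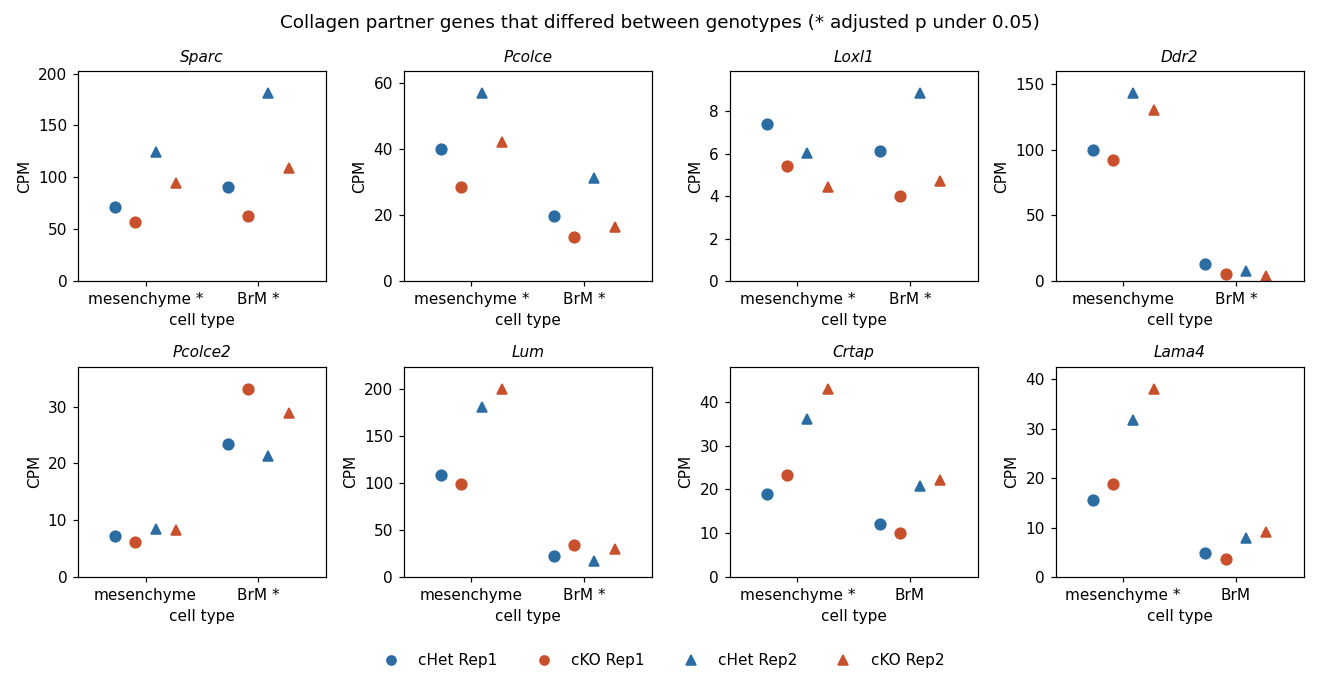
CPM per library (circles Rep1, triangles Rep2; blue cHet, orange cKO) of the 8 collagen partner genes that were called in mesenchyme or BrM; an asterisk marks the type of the call. Sparc, Pcolce and Loxl1 lie lower in the cKO library of each kit in both types.

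Whether the genotype acts differently on a gene in different types was tested for the pairs of 4 types that carry the names of types the study assessed, with ectoderm, endoderm and otic vesicle pooled as epithelium. The types were rebuilt here and may hold other cells than the study's. The MLPs, in 4 of the 5 passing tests, are 1 cluster of 634 cells without the 2783 Hoxd3-Scn3a cells, and whether those belong to the study's MLPs was not settled. With 27 to 30 collagen genes tested in each of the 6 pairs, 5 tests passed. Pairs share types, so the tests are not independent. Col25a1 differed between endothelium and epithelium by -1.41 ± 0.20 on the log2 scale (adjusted p = 0.00398; 0.148% of all genes called) and between MLPs and endothelium by 1.54 ± 0.29 (adjusted p = 0.0214; 0.169%). It stood at 57.3, 59.6, 52.8 and 89.9 CPM in epithelium and 19.7, 3.93, 22.6 and 18.9 CPM in endothelium. In MLPs it stood at 25.1, 42.2, 31.7 and 41.0 CPM. So cKO was the higher library in both kits in epithelium and MLPs and the lower in endothelium. In epithelium the log2 ratio was only 0.06 within Rep1, and 0.77 within Rep2. Of the pooled types, endoderm had log2 fold changes of 2.22 and 1.26 within Rep1 and Rep2. Ectoderm had -0.96 and 0.52, and otic vesicle -1.75 and -0.29. The make-up of the epithelium differed between libraries (for ectoderm 257, 109, 221 and 514 cells, for endoderm 92, 65, 185 and 314). So did that of the endothelium: the clusters led by Etv2 and by Gja4, with 62.6 and 36.2 CPM of Col25a1 against 3.34 CPM in the largest cluster, held 61, 35, 85 and 98 and 69, 2, 64 and 90 cells. The part of these in the differences was not tested. Col3a1 differed between MLPs and epithelium by 1.17 ± 0.17 (adjusted p = 0.0301; 0.0379%) and between MLPs and endothelium by 0.71 ± 0.15 (adjusted p = 0.0347). Its level in MLPs was 135, 126, 211 and 220 CPM and in epithelium 28.2, 9.99, 7.09 and 3.90 CPM. In endothelium Col3a1 was at 57.4 CPM in the Gja4 cluster and 28.3 CPM in the Etv2 cluster against 6.99 CPM in the largest, in which its log2 fold change was 0.10, and the part of their cell numbers in its difference was not tested either. Col2a1 differed between MLPs and aSHF with cardiac muscle by 0.83 ± 0.21 (adjusted p = 0.0305; 0.399%), with 12.7, 16.9, 19.5 and 19.8 CPM in MLPs. The part of the cardiac muscle cells, fewest in cKO Rep1 as given above, was not tested in this difference. No collagen gene passed for aSHF with cardiac muscle against epithelium (0.0132% of all genes called) or against endothelium (0%). At an unadjusted p under 0.05, 730 and 706 of all genes passed in these 2 pairs. Among the partners, Sparcl1 differed between MLPs and aSHF with cardiac muscle (2.66 ± 0.41, adjusted p = 4.42e-07) and between MLPs and endothelium (1.98 ± 0.37, adjusted p = 0.0214), and Tnc between MLPs and endothelium (-0.96 ± 0.20, adjusted p = 0.0315).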

How the data were processed

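Per the labels and the file headers, the authors made UMI counts of genes in barcodes with Cell Ranger (8.0.1 in the submitters' processing notes, build mm10; 7.0.1 in the headers of Rep1 and 8.0.1 in those of Rep2) and deposited these counts with no normalization. Cells are barcodes in which 3000 or more genes, up to 10% mitochondrial and up to 5% hemoglobin UMIs were found, without doublets called by Scrublet (4.03% to 5.78% of the cells of a library). Counts were log-normalized, and 2000 variable genes, none of them a collagen gene, gave 30 components, which were aligned over the replicates with a re-implementation of Harmony and clustered (scanpy 1.11.5, Leiden resolution 0.8). A cluster was named where at least 3 markers were found in at least 10% of its cells and were 2-fold higher than elsewhere. Mesenchyme was given only to clusters that met no other list, with the 2-fold taken against the cells named as epithelium, endothelium or neurons. Its 9 markers summed to 1355, 1428, 1987 and 1906 CPM in MLPs and to 1273, 1326, 1719 and 1736 CPM in mesenchyme. The thresholds were set after seeing the clusters. UMIs were summed per library and type, where each library had at least 20 cells, and fitted with edgeR 4.0.16 (TMM, filterByExpr, quasi-likelihood test, R 4.3.3) with the replicate as a block. The replicate number marks a shared kit, and the differences between replicates of cHet and of cKO correlated at 0.72 to 0.95 in the types. The interaction fits had the library as a block. Positions are from GENCODE M21 (GRCm38).

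The members, the partner list and the tests were chosen with earlier results of these data known. Genes were named by a rule: every called gene, members with at least 50 CPM in every library of a type, up to 3 uncalled genes per type with the largest change of the same sign in both replicates and at least 20 UMIs in each library, Col19a1 and the type IV chains, and of the partners those called and the 3 of highest level in each group; single cells, clusters and other members are given as chosen after their values were seen.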

Additional observations from a re-analysis of the deposited data

Results flagged for a closer look

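In 5 cases the genotype effect on a collagen gene differed between cell types by a test of the difference itself (edgeR, type by genotype term). For Col25a1 the difference was -1.41 on the log2 scale for endothelium minus epithelium and 1.54 for MLPs minus endothelium. Of the types pooled as epithelium, only endoderm was higher in cKO in both kits (log2 fold change 2.22 within Rep1 and 1.26 within Rep2). For Col3a1 it was 1.17 for MLPs minus epithelium and 0.71 for MLPs minus endothelium. For Col2a1 it was 0.83 for MLPs minus aSHF with cardiac muscle. In the latter type the cardiac muscle cluster with the most Col2a1 held 74 of 560 cells in cHet Rep1 and 27 of 339 in cKO Rep1, and 123 of 620 and 136 of 779 in Rep2. The endothelial level of Col25a1 was 19.7 CPM in cHet and 3.93 CPM in cKO within Rep1, and 22.6 and 18.9 CPM within Rep2, so most of that difference lay in Rep1. There the endothelial clusters with more Col25a1, led by Gja4 and by Etv2, held 69 and 61 of 440 cells in cHet and 2 and 35 of 273 in cKO. Col3a1 too was higher in these clusters (57.4 and 28.3 CPM) than in the largest (6.99 CPM), where its log2 fold change was 0.10 against -0.72 in all endothelium. The part of these changes in make-up was not tested. The MLPs in 4 of the 5 cases are 1 rebuilt cluster of 634 cells, which may not hold the same cells as the study's MLPs. The level of Col3a1 in epithelium was highest in cHet Rep1 (28.2 CPM), the library with the largest share of UMIs outside the kept cells; the part of that library was not tested.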

How the results depend on the processing

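The number of calls depended on the replicate block, on the tool and on the filter. Beside the 8 collagen and 13 partner calls, there were 0 and 0 without the replicate block, 0 to 2 and 0 to 2 when 1 library was left out (in fits with no block; 2 collagen calls and 1 partner call shared, both without cHet Rep2), and 2 and 3 with DESeq2, all shared. Testing every gene with at least 1 count gave 21 and 39 (7 and 13 shared), and RLE scaling 7 and 11 (7 and 10 shared). The collagen calls numbered 5 with doublets kept (2 shared), 3 after thinning each cell to 5000 UMIs (2 shared), 10 with cells of at least 1000 genes (5 shared), where no cluster of Hoxd3-Scn3a cells was found, and 9 with collagen genes among the variable genes (7 shared). With doublets kept the names of clusters changed too. A cluster of 1250 cells led by Tlx1 met no name, while the main run named its Tlx1-led cluster BrM. A cluster of 529 cells led by Hes5 and Rfx4 was named mesenchyme, so both types held other cells. Regroupings added after seeing the data gave 7 (MLPs pooled with the Hoxd3-Scn3a cells), 8 and 8. The share of all genes called under these settings is not given here, so the counts do not show whether calls of all genes changed likewise. Beside the 5 interaction calls, there were 6 with RLE scaling, all 5 among them. There were 10 with every gene tested, among them 4 of the 5, without that of Col2a1. Over all genes, endothelium, aSHF with cardiac muscle and MLPs, each minus epithelium, had 22, 2 and 5 calls in the main fit. They had 16, 1 and 26 with RLE scaling and 98, 92 and 50 with every gene tested. In that order, MLPs minus endothelium had 22, 60 and 58 and MLPs minus aSHF with cardiac muscle 53, 58 and 45. For aSHF with cardiac muscle minus endothelium there were 0, 3 and 11. Each pair tested 13037 to 15182 genes, or 22190 to 24045 with every gene tested. The cause was not tested.

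The called genes kept their direction in 87 of 88 alternatives and the named uncalled ones in 370 of 385. Alternatives in which a gene was not tested are left out, so Col8a1 had 9 and Col19a1 10, against 12 for Col25a1. Each called gene kept its call in 3 to 7 of its alternatives. All alternatives reuse the same libraries, so a kept direction is not independent evidence. The reversal among the called genes was Col9a1 in neuronal cells without cHet replicate 1 (leave-one-out range -3.66 to 1.15). Among uncalled genes, leaving out 1 library gave ranges that crossed 0 for Col9a1 in Hoxd3-Scn3a cells (-1.28 to 0.31), Col3a1 in ectoderm (-1.66 to 0.76, with 0.26 without cKO replicate 2), Col4a6 in endoderm (-0.48 to 0.06), Col1a2 (-0.98 to 0.05), Col25a1 (-1.12 to 2.74, with -0.46) and Col4a1 (-0.92 to 0.32, with 0.02) in neuronal cells, and Col24a1 in pSHF (-0.93 to 0.20). Col5a2 in endoderm turned to -0.11 with cells of at least 1000 genes and to -0.47 after thinning, Col3a1 in endothelium to 0.10 in the largest cluster alone, and with doublets kept Col4a1 in neuronal cells turned to 0.01 and Col25a1 in otic vesicle to 0.04. The levels of 6 classes, each in its leading type, moved by less than the spread between libraries under the 5 alternatives run on them. Low genes such as Col8a1 and Col19a1 are limited by counts under 100 UMIs per library.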

Other observations

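Several groups of cells were in no comparison. An unnamed cluster of 359 cells led by Hes5 and Rfx4 had 524, 340, 520 and 432 CPM of collagen in all, the lowest of the groups by mean, with 43.5 ± 21.1 CPM of Col2a1 and 6.87 ± 6.97 CPM of Col9a3. The neural crest and glia cells (153 cells, 12 of them in cHet Rep2) had 778, 674, 1332 and 947 CPM.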
